A study of Mus musculus with 5 samples.

Results

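In mouse embryonic stem cells, H2AK119ub peaks of 5 kb or more formed 754 broad domains among the 20521 wild-type peaks on the 17 autosomes other than 6 and 8. They were selected on wild-type peak width alone, so their wild-type widths describe the choice and are not a finding. The whole wild-type list held 24235 peaks, the knockout list 20994 and the wild-type RYBP list 9564. All 3 libraries came from the MPI-II line, grown on feeder cells in serum with leukemia inhibitory factor, the MEK inhibitor PD0325901 and the GSK3 inhibitor CH99021. Wild-type cells gave 1 library for H2AK119ub and 1 for RYBP, the latter with an antibody sold under the alias DEDAF. The knockout library for H2AK119ub came from a single clone without DDX5, an RNA helicase, in which paired guide RNAs had directed a nickase form of SpCas9 to exon 2 of Ddx5, with G418 selection. With 1 library a group, no difference between genotypes has a replicate check, and 1 clone stands for the knockout. Intervals are 95% intervals (Wilson for a share, Newcombe for a difference of shares) that cover counting error only. They take the counted units, such as domains, genes or start windows, as independent.

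H2AK119ub is ubiquitin placed on histone H2A by Polycomb repressive complex 1, which holds developmental genes silent in stem cells. Variant forms of the complex contain RYBP, which stimulates the ubiquitin ligase and binds the mark. In mammals these complexes gather at CpG islands, stretches dense in unmethylated CG at many gene starts, and the mark can spread over the surrounding chromatin into broad domains.

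Because CG density at gene starts bears on where such complexes sit, start windows from both kinds of domain are shown, 3 from domains with 5 RYBP peaks and 3 from wide domains without a RYBP peak. Each window runs from 250 bases before the annotated start to 50 after it, 5′ to 3′ on the gene's strand, from RefSeq GRCm38.p6 (mm10 coordinates). Capitals mark every CG. Hoxb4 and Pax2, a homeodomain and a paired-box factor, lie on the plus strand at chr11:96318017-96318316 and chr19:44756656-44756955, and Nkx2-2, a homeodomain factor of the ventral neural tube, on the minus strand at chr2:147186353-147186652. Erfl, an ETS repressor-like gene, and Spib, an ETS factor of lymphoid cells, lie on the minus strand at chr7:24944722-24945021 and chr7:44532022-44532321, and Speg, a kinase of striated muscle, on the plus strand at chr1:75399835-75400134.
Hoxb4: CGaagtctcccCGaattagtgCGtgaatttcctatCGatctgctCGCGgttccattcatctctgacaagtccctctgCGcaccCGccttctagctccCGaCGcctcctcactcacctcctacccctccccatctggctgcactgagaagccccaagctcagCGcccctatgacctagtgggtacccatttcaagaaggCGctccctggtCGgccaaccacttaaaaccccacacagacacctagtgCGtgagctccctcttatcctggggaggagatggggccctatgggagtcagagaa
Pax2: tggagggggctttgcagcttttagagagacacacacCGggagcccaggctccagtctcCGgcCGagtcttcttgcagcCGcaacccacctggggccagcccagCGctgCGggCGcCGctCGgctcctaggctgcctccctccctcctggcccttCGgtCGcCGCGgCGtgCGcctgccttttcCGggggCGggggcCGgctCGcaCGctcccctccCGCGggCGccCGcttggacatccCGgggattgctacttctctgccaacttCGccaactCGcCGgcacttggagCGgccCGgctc
Nkx2-2: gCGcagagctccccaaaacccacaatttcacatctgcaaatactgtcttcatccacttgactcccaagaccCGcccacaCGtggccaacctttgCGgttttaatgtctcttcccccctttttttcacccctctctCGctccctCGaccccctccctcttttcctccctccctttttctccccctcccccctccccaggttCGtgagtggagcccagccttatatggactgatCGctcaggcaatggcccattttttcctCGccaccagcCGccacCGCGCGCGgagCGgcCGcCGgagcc
Erfl: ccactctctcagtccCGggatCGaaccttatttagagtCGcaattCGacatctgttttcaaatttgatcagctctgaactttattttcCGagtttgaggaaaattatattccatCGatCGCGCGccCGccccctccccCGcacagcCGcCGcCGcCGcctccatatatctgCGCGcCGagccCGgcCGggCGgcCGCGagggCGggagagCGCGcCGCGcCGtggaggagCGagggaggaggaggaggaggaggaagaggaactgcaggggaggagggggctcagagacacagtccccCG
Spib: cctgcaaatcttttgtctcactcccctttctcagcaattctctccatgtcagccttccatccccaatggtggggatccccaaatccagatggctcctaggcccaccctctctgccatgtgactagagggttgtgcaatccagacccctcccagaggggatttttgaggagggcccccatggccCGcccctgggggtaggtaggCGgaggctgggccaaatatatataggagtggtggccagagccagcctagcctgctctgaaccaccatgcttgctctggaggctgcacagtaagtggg
Speg: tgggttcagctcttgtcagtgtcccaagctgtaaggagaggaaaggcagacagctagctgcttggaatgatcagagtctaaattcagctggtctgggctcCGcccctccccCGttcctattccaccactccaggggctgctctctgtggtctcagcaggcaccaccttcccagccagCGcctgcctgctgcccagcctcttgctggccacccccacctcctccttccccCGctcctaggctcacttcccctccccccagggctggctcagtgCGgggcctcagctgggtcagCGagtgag

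The 3 windows from domains with RYBP held 14 CG (Hoxb4), 30 CG (Pax2) and 17 CG (Nkx2-2), and the 3 without held 31 (Erfl), 2 (Spib) and 6 (Speg). The start of Hoxb4 and that of Pax2 lay under a RYBP peak, and knockout peaks covered all 3 starts of the first set. Of the second set, only the Erfl start lay under a knockout peak. Erfl was the exception in CG content among these 3, and its domain of 11875 bp was covered to 58.5% in the knockout. The Spib domain, 11118 bp wide, was covered to 35.0%, and the Speg domain shown, 9660 bp wide, to 63.7%. Speg was overlapped by 5 broad domains, and 4 of them had RYBP. The Speg start shown lies inside the gene, which begins at 75375297, so it does not stand for the gene as a whole.

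Across all domains the same contrast was measured on 390 listed start windows of 310 genes in 269 domains. Windows can share a gene or a domain, and the intervals below do not allow for this. A window was called rich in CG when its GC content was at least 50% and its observed CG count at least 0.6 times the expected one, without regard to strand. The Hoxb4 window missed this rule by a small margin, with 0.59 times the expected count. Of all 28089 windows on these chromosomes 34.3% passed, against 191 of the 390 in broad domains, 49.0% (44.0% to 53.9%). In domains with RYBP 183 of 336 windows passed, 54.5% (49.1% to 59.7%), and in domains without RYBP 8 of 54, 14.8% (7.70% to 26.6%). The contrast was sharper at the start itself: of windows whose start lay under a RYBP peak 162 of 251 passed, 64.5% (58.4% to 70.2%), with a median of 20 CG. Of those whose start did not, 29 of 139 passed, 20.9% (14.9% to 28.4%), with a median of 7 CG, which is also the median of all windows. Seen from the windows, 84.8% of the starts rich in CG (79.0% to 89.2%) and 44.7% of the other starts (38.0% to 51.7%) lay under RYBP. For H2AK119ub in the knockout the shares lay close together. Knockout peaks covered 156 of 191 starts rich in CG, 81.7% (75.6% to 86.5%), and 164 of 199 others, 82.4% (76.5% to 87.1%).

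The domains together spanned 5.89 Mb. Their widths ran from 5002 to 39824 bp with a median of 6603 bp, and 121 of them, 16.0%, reached 10 kb. Just inside the minimum were a domain of 5002 bp at Kif21b, a kinesin gene, covered to 55.6%, and one of 5011 bp with no gene, covered to 79.4%. Just outside were a peak of 4992 bp at Rnf227, covered to 98.8%, and one of 4990 bp at Prtn3, the gene for a neutrophil protease, covered to 81.4%.

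The first comparison asked how much of the broad wild-type mark was found in cells without DDX5. Nearly every domain was touched by a knockout peak, 743 of 754 or 98.5% (97.4% to 99.2%), where the share over all wild-type peaks was 47.5%. A wide peak is touched more easily than a narrow one, so the centre base was also read. It lay under a knockout peak in 609 domains, 80.8% (77.8% to 83.4%), against 36.4% of all wild-type peaks and 34.7% of narrower ones. The difference between broad and narrower peaks was 46.1 percentage points (43.1 to 48.8). In bases, 4.43 of the 5.89 Mb were covered in the knockout, 75.2%, against 43.5% over all wild-type peaks. With wild-type peaks within 2 kb of each other merged before the width minimum, which gave 2320 domains, the share was 49.9%. Those domains include the gaps between merged peaks and runs of narrower peaks, so they are a different set of bases. The median domain was covered to 78.5%, with quartiles of 60.6% and 91.9%. Coverage reached 90% in 221 domains and 100% in 17, and it was under 50% in 128, under 25% in 28 and nil in 11.

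Coverage in the knockout was higher in each wider class of wild-type peaks, below the minimum as well as above it. It was 15.2% for peaks under 1 kb, 30.0% from 1 to 2 kb, 48.7% from 2 to 3 kb, 59.0% from 3 to 4 kb and 62.3% from 4 to 5 kb. Domains of 5 to 7 kb were covered to 69.8%, those of 7 to 10 kb to 75.0% and those of 10 kb or more to 83.0%. The median peak was covered to 65.4% from 4 to 5 kb, 74.5% from 5 to 7 kb and 87.9% at 10 kb or more.

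Since the members were chosen for width in 1 library, the reverse was measured too. Broad knockout domains of 5 kb or more numbered 274 on the same chromosomes. Wild-type peaks covered 95.9% of their bases and the centre of 267 of them, 97.4% (94.8% to 98.8%), against 75.2% and 80.8% in the other direction. A broad wild-type domain was touched by 237 of the 274, and 1 of the 274 touched no wild-type peak. The knockout list was also shorter and its peaks narrower as a whole on these chromosomes, 17144 peaks with a median of 1017 bp against 20521 with a median of 1316 bp. Read depth and enrichment of the libraries are unknown, and their part in these differences cannot be told apart from that of the genotype.

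**Figure D1:**
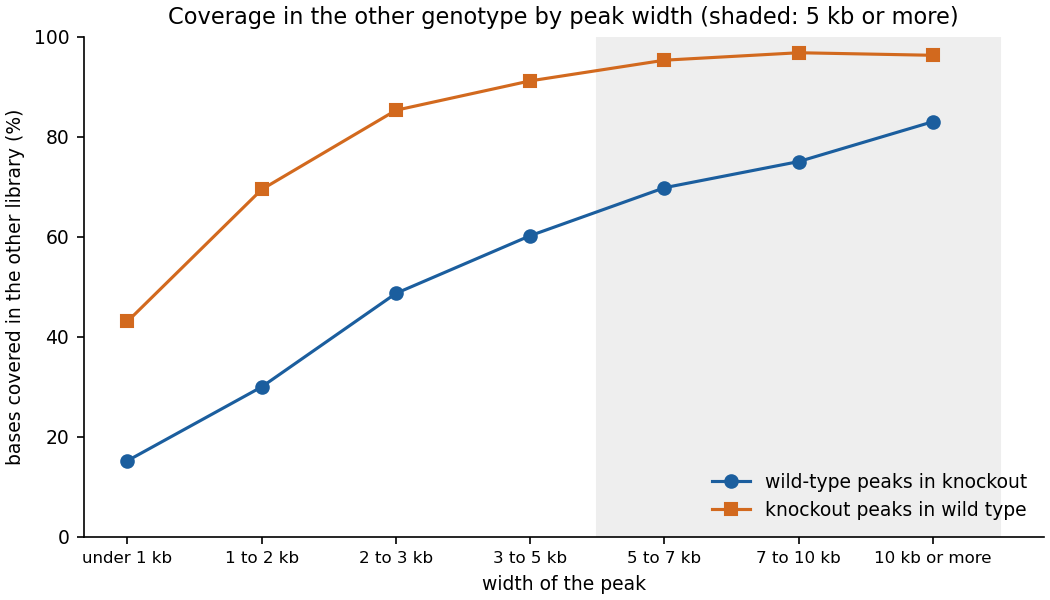
Share of bases covered in the other genotype (vertical axis, percent) by width class of the peak (horizontal axis), for wild-type peaks read in the knockout list and knockout peaks read in the wild-type list. Wild-type coverage climbs from 15.2% under 1 kb to 83.0% at 10 kb or more, and the reverse curve lies above it in every class, at 95.3% to 96.8% in the shaded classes of 5 kb or more.

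In the lists as deposited, most domains were met by several knockout peaks. Single knockout peaks touched 173 domains, 2 peaks 277, 3 peaks 177 and 4 or more 116, so that 570 domains, 75.6% (72.4% to 78.5%), were met by at least 2, where 10.3% of all wild-type peaks were. This number rests on small gaps. The 1055 gaps between neighbouring knockout pieces of a domain had a median of 251 bp, 287 of them were at most 100 bp long and 1003 at most 2 kb, and when knockout peaks within 2 kb of each other were merged the share fell to 6.76%. With knockout peaks of at least 1 kb alone it was 59.7%. Wild-type domains lay just as close to their own neighbours, at a median of 243 bp from the nearest other wild-type peak and within 2 kb in 666 of 754. The number of pieces is therefore given as a description of the lists and not as a measure of fragmentation.

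In the 743 domains that a knockout peak touched, 848 kb were lost between a domain's edge and its first or last knockout piece and 546 kb between pieces, 60.8% at the edges. Such domains of 5 to 7 kb had 70.0% of their loss at the edges, and those of 10 kb or more 43.9%. The 11 untouched domains added 67.3 kb of loss. Knockout peaks also ran past the domains, by 398 kb in all. The widest knockout peak was itself 5 kb or more in 230 domains, 30.5% (27.3% to 33.9%), and was wider than the domain in 57.

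RYBP peaks were common in broad domains. At least 1 RYBP peak overlapped 507 of the 754, 67.2% (63.8% to 70.5%), where the share over all wild-type peaks was 21.9%. Narrower peaks stood at 20.1%, a difference of 47.1 points (43.6 to 50.4). Measured per base, which does not favour wide peaks, RYBP covered 22.7% of the broad domains against 13.8% of all wild-type peaks. The share was 5.04% in peaks under 1 kb, 15.6% from 2 to 3 kb, 18.3% from 3 to 4 kb and 18.1% from 4 to 5 kb. Of the 472 peaks of 4 to 5 kb, 237 had a RYBP peak, so RYBP was also common just below the minimum. A single RYBP peak was present in 348 domains, 2 in 125, 3 in 26, 4 in 5 and 5 in 3. RYBP peaks that touched a broad domain were wider than the rest, with medians of 2088.5 and 1570 bp. They numbered 680 of the 8236 RYBP peaks on these chromosomes, and in the 507 domains they covered 32.7% of the bases. When a RYBP peak had to lie wholly inside the domain, 45.8% of domains had one.

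Domains with RYBP kept more of the mark in the knockout than domains without. Knockout peaks covered 81.7% of the bases of the 507 domains with RYBP and 60.6% of the 247 without, a difference of 21.1 points. The medians per domain were 84.8% and 61.0%. The centre base was covered in 87.4% and 67.2%, a difference of 20.2 points (13.8 to 26.8). Coverage under 50% was found in 37 of 507 and 91 of 247 domains, 7.30% and 36.8%, and coverage of 90% or more in 38.3% and 10.9%. Of the 11 untouched domains, 9 had no RYBP peak. The share met by at least 2 knockout peaks was 74.2% with RYBP and 78.5% without, and the interval of that difference ran from -10.5 to 2.23 points.

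The RYBP difference had the same sign in each width class and at each kind of place. In domains of 5 to 7 kb it was 20.8 points of covered bases, from 7 to 10 kb 16.9 points and at 10 kb or more 21.6 points. Narrower wild-type peaks had the gap too, so it was not particular to broad domains. Peaks of 4 to 5 kb were covered to 71.2% with RYBP and 53.3% without, and those of 1 to 2 kb to 50.0% and 25.2%. Among broad domains, the places were compared as well. The RYBP difference was 17.1 points among domains that hold a gene end and 22.8 points among those that do not. Read from the centre base, it was 21.0 points at gene ends (11.5 to 31.7), 15.2 points in gene bodies (4.69 to 25.5) and 22.0 points outside genes, where the interval ran from -0.647 to 40.2 with 69 domains. Coverage was also higher with each further RYBP peak, at 60.6% with none, 77.4% with 1, 87.6% with 2 and 91.4% with 3 or more. Domains with more RYBP peaks were wider as well: 348 with 1 spanned 2.55 Mb, and 34 with 3 or more spanned 0.428 Mb. This series was not read within width classes. Domains with RYBP held a gene end in 68.8% and those without in 36.4%, and their median widths were 6869 and 6231 bp. The part of gene ends and width in the difference was not tested beyond these classes.

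**Figure D2:**
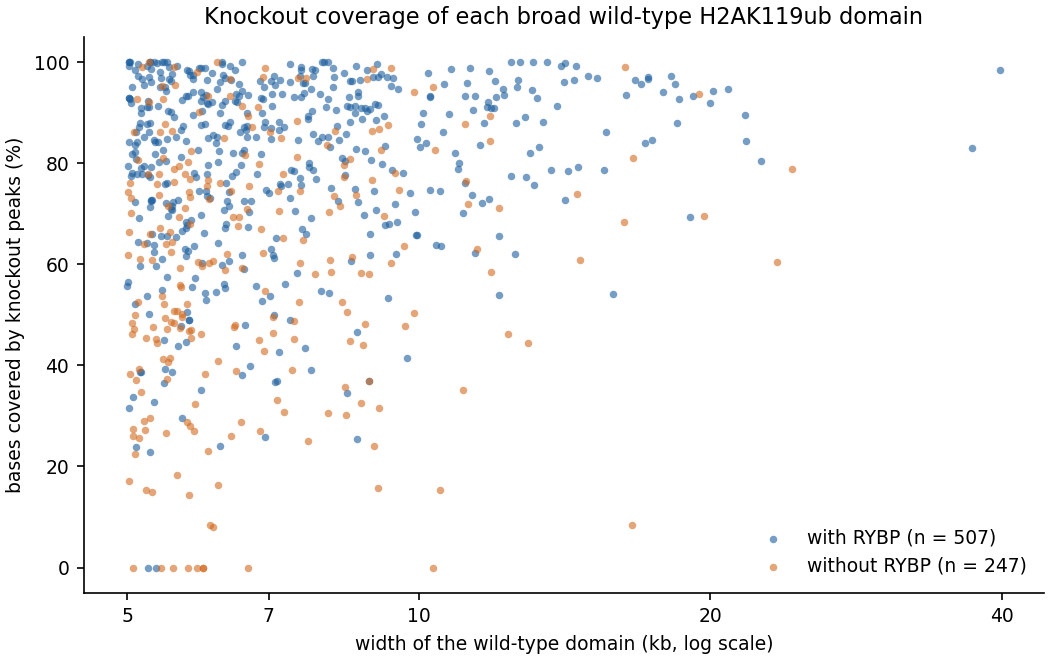
Share of each domain's bases covered by knockout peaks (vertical axis, percent) against its wild-type width (horizontal axis, kb, log scale), one point a domain, coloured by whether a RYBP peak overlaps it. The 247 domains without RYBP spread down to 0 with a median of 61.0%, the 507 with RYBP gather towards the top with a median of 84.8%, and the widest without RYBP measures 24269 bp.

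Within the 507 domains with RYBP, the stretches under RYBP kept the mark best. Knockout peaks covered 91.3% of the bases under a RYBP peak and 76.9% of the other bases of the same domains, 14.4 points apart. Since coverage was lower towards the edges, the same was read without the outer 20% of the width at either end, which gave 93.2% and 84.6%, or 8.55 points. In 20 equal bins from the left to the right edge, knockout coverage of domains with RYBP was 55.3% in the first bin, at most 88.6% and 54.1% in the last. Without RYBP it was 36.8% in the first bin, at most 68.5% and 34.5% in the last. RYBP itself covered 27.0% of the first bin of its domains, at most 40.6% of a bin and 32.0% of the last. Both kinds of domain thus had lower coverage at both edges, and the gap between them was present in every bin.

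**Figure D3:**
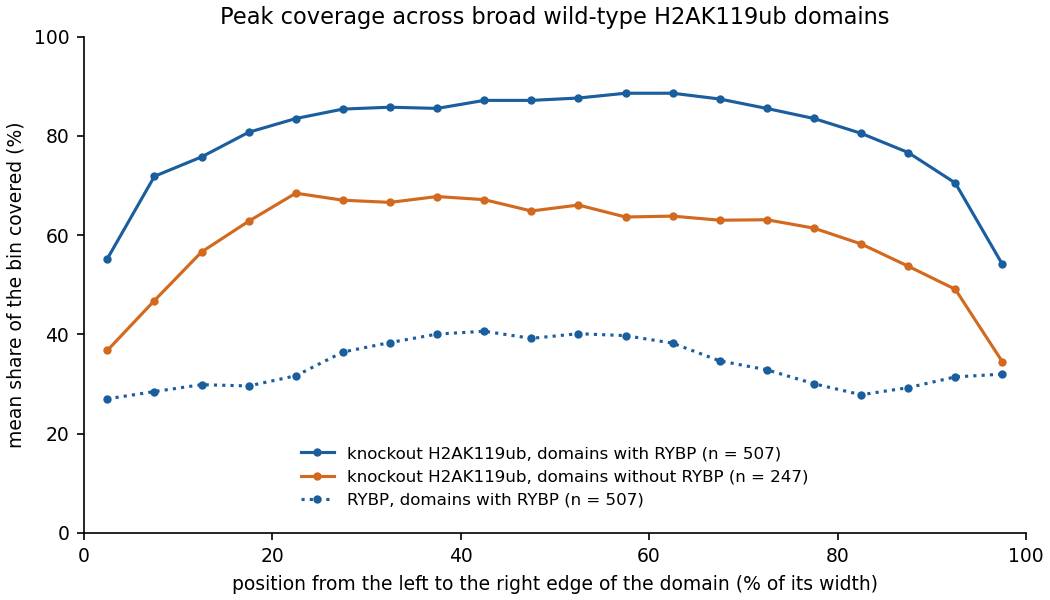
Mean share of each of 20 bins covered (vertical axis, percent) from the left to the right edge of the domain (horizontal axis, percent of its width), for knockout H2AK119ub in domains with and without RYBP and for RYBP in its own domains. Knockout coverage lies between 54.1% and 88.6% with RYBP and between 34.5% and 68.5% without, and RYBP is highest towards the middle at 40.6%.

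Broad domains lay mostly on genes. A gene was overlapped by 685, 90.8% (88.6% to 92.7%), where 75.1% of all wild-type peaks overlapped one, and a protein-coding gene by 636. At least 1 end of a gene lay inside 439 domains, 58.2% (54.7% to 61.7%), against 13.3% of narrower peaks. A wide peak overlaps a gene or holds a gene end more easily than a narrow one. No comparison at equal width was made, so a preference for genes or gene ends was not tested. A further 246 domains lay in the body of a gene with neither end inside, and 69 overlapped no gene. RYBP followed the same order, with 79.5% of domains at a gene end (75.5% to 83.0%), 53.3% in gene bodies (47.0% to 59.4%) and 39.1% outside genes (28.5% to 50.9%). Knockout coverage did too, at 78.8%, 71.2% and 63.1% of bases. With RYBP present the 3 places were close, at 82.1%, 80.4% and 81.1%, and without RYBP they were 65.0%, 60.0% and 51.5%. The table of genes has no strand and no exons, so starts were not told from ends here.

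Only 581 of 18496 protein-coding genes on these chromosomes, 3.14%, were overlapped by a broad domain, and the shares of the gene lists below are read against that. The lists group genes by role, and neighbours in a cluster can share a domain. Of the genes overlapped, 468 had 1 domain and 93 had 2.

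Hox genes and close relatives, which set position along the body axis, had a domain at 26 of 37 members, 70.3% (54.2% to 82.5%). Their 20 domains were covered to 87.8% in the knockout and 19 of them had RYBP. The widest of all domains, 39824 bp on chromosome 11 from 96278905 to 96318728 over Hoxb3 to Hoxb8 and Mir10a, was met by 3 knockout peaks of 12182, 20839 and 6202 bp with 45 bp in all between them, and held 5 RYBP peaks. Hoxb2 lay in a domain of 19207 bp covered to 93.3%. In the Hoxc cluster coverage was lower, at 69.3% for the 19066 bp at Hoxc6, Hoxc8 and Hoxc9 and 36.9% for the 8888 bp at Hoxc11. The 6 domains of the Hoxb cluster were covered to 93.2% together and the 6 of Hoxc to 71.5%. Cdx2, a caudal-type factor of trophectoderm and hindgut, had 13078 bp covered to 94.4%.

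Other homeobox regulators followed, with 54 of 91 members, 59.3% (49.1% to 68.9%), in 70 domains of which 65 had RYBP. These were covered to 89.0%. Lbx1, a factor of migrating muscle precursors, had 18550 bp covered to 92.8%, and Pax2, a kidney and midbrain regulator, 18218 bp covered to 97.2% with 5 RYBP peaks. Dlx4 had 17235 bp covered to 97.0%, and Uncx, a somite factor, 16359 bp covered to 93.4%. Lmx1b, a limb and dopamine neuron regulator, carried 7 domains over a gene of 80.2 kb, the widest of 14950 bp covered to 97.2% and the 7 together to 86.6%. Pax7, a muscle stem cell regulator, was covered in full over 13547 bp by a single knockout peak of 14905 bp, and Otx1, of the forebrain, over 8049 bp by a knockout peak of 8986 bp. Single domains of this list were covered to between 38.0% and 100%.

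Forkhead, Sox, T-box, Gata and zinc finger regulators had a domain at 27 of 83 members, 32.5% (23.4% to 43.2%). Their 35 domains, 30 with RYBP, were covered to 86.4%. Runx3 had 15617 bp covered to 86.2%, Sox14 14610 bp covered to 79.3%, Tbx5, a heart and forelimb regulator, 14154 bp covered to 72.6%, and Gata3, of the T cell lineage, 9375 bp covered to 78.7%. Osr1, of the kidney mesoderm, was covered to 98.9% over 9367 bp without any RYBP peak. Basic helix-loop-helix regulators had 9 of 54, 16.7% (9.02% to 28.7%), in 10 domains that all had RYBP and were covered to 84.0%. Among them Sim2 had 21774 bp covered to 84.4%, Neurog1, of sensory neuron precursors, 13124 bp covered in full, Ascl2, of the trophoblast, 12108 bp covered to 53.9%, Hes3 10594 bp covered to 86.1% and Neurod2 8910 bp covered to 90.7%.

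Pooled, 135 domains lay at a regulator of these 4 lists. RYBP was present in 124 of them, 91.9% (86.0% to 95.4%), against 383 of the 619 others, 61.9% (58.0% to 65.6%). Knockout peaks covered 87.8% of the regulator domains and 71.8% of the others. Among domains with RYBP alone the values were 88.5% and 78.9%. The regulator domains were also wider, with a median of 8370 bp against 6428 bp.

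Signalling genes had a domain at 29 of 128 members, 22.7% (16.3% to 30.6%), and 31 of their 42 domains had RYBP. Coverage in the knockout was 83.4%. The ephrin receptor gene Epha8 was overlapped by 2 domains. The wider, 19450 bp without a RYBP peak, was covered to 93.6%, by 6 knockout peaks. It lay in a neighbourhood of 3 domains, and the other 2 had RYBP. Fgfr3, a fibroblast growth factor receptor, had 17390 bp covered to 84.6%, the Notch ligands Dll4 and Jag2 15517 bp covered to 78.6% and 14558 bp covered to 73.8%, and Wnt7b 13247 bp covered to 93.0%. Ihh, the hedgehog ligand of growth plate cartilage, was covered in full over 7985 bp.

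Ion channel and transmitter receptor genes had a domain at 18 members, 15.1% of the list (9.79% to 22.6%). Their 42 domains had RYBP in 23 and were covered to 71.7%. The nicotinic receptor gene Chrna4 had 15857 bp covered to 54.1%, and the glutamate receptor genes Grik5 and Grm4 11554 bp covered to 83.6% and 11208 bp covered to 95.8%. Imprinted genes had 9 of 41 with a domain, 22.0% (12.0% to 36.7%). Of their 23 domains 8 had RYBP, and coverage was 70.3%. Kcnq1, a potassium channel gene that belongs to both lists, alone supplied 14 domains. Grb10, a growth factor receptor adaptor, had 20126 bp covered to 94.3%, Slc22a18 12368 bp covered to 46.3% and H19, a long noncoding RNA, 11233 bp covered to 72.0% in 7 pieces.

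The 14 domains that overlap Kcnq1 added up to 173254 bp in full width on chromosome 7, the most of any gene. Knockout peaks covered 66.9% of them, from 24.0% to 100% for single domains, and 2 of the 14 had a RYBP peak. The widest, 37272 bp from 143411179 to 143448450, was met by 9 knockout peaks and covered to 82.9%. It ran past the end of Kcnq1 at 143427050, so the sum and its coverage include bases outside the gene. Another of 24269 bp from 143177869 to 143202137 had 8 pieces and 78.9%, and one of 19715 bp from 143372046 to 143391760 had 7 pieces and 69.6%, both without RYBP. Of all domains 3 had 9 pieces, 1 had 8 and 4 had 7. By number of domains Prdm16, a zinc finger regulator of brown fat, came next with 8 domains of 57029 bp, covered to 71.0%.

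The remaining lists had few or none, and of all microRNA genes on these chromosomes 21 of 1036 lay in a domain, 2.03%. Of 38 Polycomb genes 3 had a domain. Among them were Cbx8 and Cbx2, chromobox subunits of the canonical complex that lie together on chromosome 11, with 7769 bp covered to 85.7% and 5774 bp covered to 62.7%. Of 29 pluripotency genes only Gbx2 had one, 11384 bp covered to 90.4%, and it is also counted with the Hox relatives. Of 21 feeder and fibroblast genes only Pdgfra did, 9080 bp covered to 91.5%. No broad domain overlapped any of 25 germline genes or 31 housekeeping genes, whose upper limits were 13.3% and 11.0%. The lists of peaks give no expression, so they check neither the cell type nor the knockout.

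**Figure D4:**
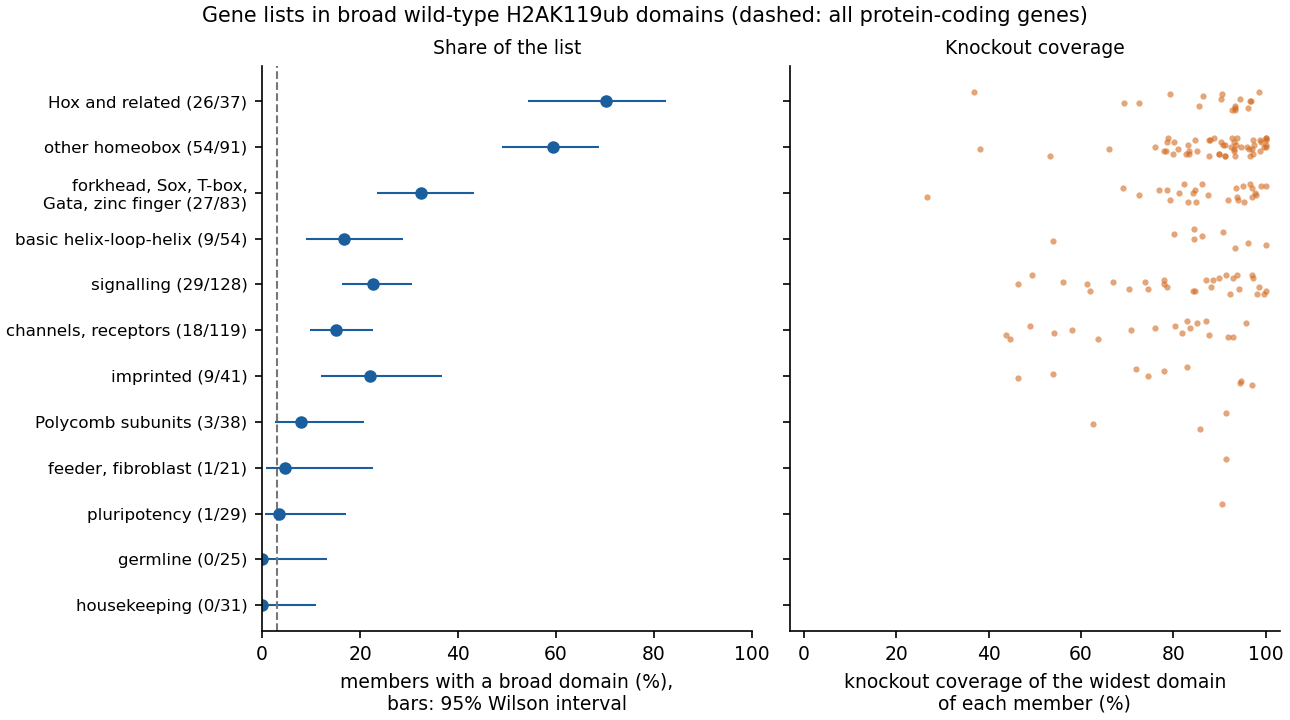
Left, share of each gene list with a broad domain (horizontal axis, percent, with 95% Wilson intervals and counts beside the names) and, dashed, the 3.14% of all protein-coding genes. Right, knockout coverage (percent) of the widest domain of each such member. Hox genes lead at 70.3% and other homeobox genes follow at 59.3%, and germline and housekeeping genes have no domain. Over all domains of the Hox and other homeobox lists, not only those plotted, median coverage is 92.9% and 91.1%.

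The other domains named by rule outside these lists were at genes of several kinds. Kif26a, Plcb2 and Elfn2 were named for width, Bsn for coverage, Plec for RYBP peaks and Igsf21 for knockout pieces. Kif26a, which encodes an atypical kinesin, had 22576 bp on chromosome 12 covered to 80.4%, Plcb2, a phospholipase C, and Ankrd63 shared 21726 bp on chromosome 2 covered to 89.5%, and Elfn2, a leucine-rich repeat protein of synapses, had 20852 bp on chromosome 15 covered to 94.7%. Bsn, which encodes the presynaptic scaffold Bassoon, was covered in full over 12733 bp, and Plec, for the cytoskeletal linker plectin, to 99.7% of 14160 bp with 4 RYBP peaks. Igsf21, a synaptic adhesion gene, kept 60.9% of 14669 bp in 9 pieces of which the widest was 1554 bp inside the domain, with no RYBP.

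The widest domain without a gene, 23435 bp on chromosome 5 from 33446747 to 33470181, was met by 9 knockout peaks that covered 60.4%, and had no RYBP. Others without a gene were 16640 bp on chromosome 17 from 27401680 to 27418319, covered to 81.1% without RYBP, 12225 bp on the same chromosome from 27296624 to 27308848, covered to 94.6% with 1 RYBP peak, 11989 bp on chromosome 11 from 119041428 to 119053416, covered to 96.3% with 3, and 10266 bp on chromosome 2 from 172733605 to 172743870, covered to 74.6% with 2.

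The 11 domains that no knockout peak touched were 5065 to 10348 bp wide. The widest lay at BC018473 on chromosome 11 from 116749078 to 116759425, 10348 bp wide, and was followed by 6666 bp at Uvssa, a transcription-coupled repair gene on chromosome 5, 5988 bp at Septin9, a cytoskeletal GTPase gene on chromosome 11, 5982 bp at BC024139 on chromosome 15 and 5906 bp without a gene on chromosome 17. The nearest knockout peak was 375 to 14518 bp away. The 2 with a RYBP peak were the one at Rasgrp2 on chromosome 19, 5247 bp, and the one at 1700055K11Rik on chromosome 2, 5353 bp. No member of the regulator, signalling or channel lists was among them. Over all domains the untouched share was only 1.46%, and the 23 domains of imprinted genes were all touched too. The absence is therefore not read as a trait of these lists.

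Many broad domains lay near each other. With domains within 50 kb of each other joined, 437 of the 754 fell into 143 neighbourhoods of at least 2, and 317 stood alone. Narrower wild-type peaks were not joined in the same way, so whether grouping is particular to broad domains was not tested. Of the neighbourhoods 23 held 5 or more domains. The first, from Kcnq1 over Cdkn1c, a cell cycle inhibitor, to Phlda2, held 12 domains in 193 kb, 3 of them with RYBP, and was covered to 69.9%. The neighbourhood of Cbx2 and Cbx8 also held 12, 6 with RYBP, and was covered to 75.2%. A neighbourhood from Speg to Slc4a3 on chromosome 1 held 10 domains, 9 with RYBP, and was covered to 73.0%. On chromosome 17 Mir7214 to Grm4 held 9, 2 with RYBP, at 82.2%, and on chromosome 12 a neighbourhood around Tmem179 and Inf2 held 8, 2 with RYBP, at 55.5%. The Wnt9b and Wnt3 neighbourhood on chromosome 11, 2 genes for secreted Wnt ligands, held 7, 4 with RYBP, at 85.5%. Domains of a neighbourhood are therefore not independent of each other, and the intervals above do not allow for this. By chromosome, coverage ran from 64.5% on chromosome 10 (32 domains) to 93.8% on chromosome 13 (18 domains).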

How the data were processed

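The data are 3 ChIP-seq libraries: wild-type H2AK119ub, DDX5 knockout H2AK119ub and wild-type RYBP. The 2 input libraries of the 5 samples were not analysed here. Groups follow the sample titles. Bowtie2 2.2.5, MACS 1.4 and build mm10 are named, without roles, per the submitters' processing notes. How peaks were thresholded, and against which input, is not given in the sources used here. Each deposited list holds the peaks of 1 library as positions, and its score column is 0 for every peak, so no height or p-value was used and read depth is unknown.

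Peaks were compared by overlaps of at least 1 bp and by shared bases with Python 3.11.15. A domain was retained when a knockout peak touched it. Figures were drawn with matplotlib 3.10.9. No test across samples was possible with 1 library a group, so counts and bases are given beside those of all wild-type peaks of the same chromosomes. Genes, start windows and microRNAs came from RefSeq GRCm38.p6. The start windows do not cover every gene, and chromosome 18 was not used for them. Overlap counts were checked on simulated peaks.

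The members and the gene lists were chosen with earlier results of these data known. Genes are named by rule: the 8 widest domains, the 5 with the lowest and highest coverage, the 5 with the most knockout pieces, the 5 with the most RYBP peaks, the 5 widest without RYBP, the 5 widest without a gene, and up to 5 members a list by domain width. Sequences come from the domains so named with the most RYBP peaks, and, as the named domains without RYBP held no listed start other than of a predicted gene, from the next widest without RYBP. Hoxc11, Cdx2, Prdm16, the gene neighbourhoods beyond the first 2, and the genes among the closing observations were chosen after their values were seen. Of the genes this rule picks, 2 are left out of the text. Alternatives covered the minimum width, the chromosomes, merged or filtered peaks, the overlap rules and the Hox domains.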

Additional observations from a re-analysis of the deposited data

How the results depend on the processing

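Neither difference changed sign under any alternative, but 26 values moved beyond their interval. The share met by at least 2 knockout peaks went from a majority to a small minority. For measures in bases, the interval was worked out as if the share of bases were a share of domains. It does not measure the spread of base coverage and serves as a yardstick only. For the lead of bases under RYBP, it also treated bases of the same domains as 2 independent groups. The share of domains touched in the knockout, 98.5%, was 96.9% with a minimum width of 4 kb, 93.9% with wild-type peaks within 2 kb merged (2320 domains), 96.6% with knockout peaks of at least 1 kb, 83.0% when 50% of a domain had to be covered and 80.8% by its centre base. Covered bases, 75.2%, were 71.8% and 83.0% with minimum widths of 4 and 10 kb, 49.9% and 84.3% with wild-type or knockout peaks merged, and 70.4% with knockout peaks of at least 1 kb. The share met by at least 2 knockout peaks, 75.6%, was 67.1% and 86.8% at 4 and 10 kb, 59.7% with knockout peaks of at least 1 kb and 6.76% with them merged. The share with RYBP, 67.2%, was 60.7% and 79.3% at 4 and 10 kb, 62.3% with chromosomes 6, 8 and X added, 56.1% with wild-type peaks merged, 59.0% for RYBP centres and 45.8% for whole RYBP peaks inside. The share on a gene, 90.8%, was 95.9% at 10 kb, 84.4% for protein-coding genes, 58.2% for a gene end and 15.9% for a whole gene. The lead of bases under RYBP, 14.4 points, was 20.6 points with wild-type peaks merged and 8.55 points in the middle of domains. The difference of 21.1 points between domains with and without RYBP stayed within the interval of the values reported under each alternative. With each chromosome left out in turn, covered bases ran from 74.5% to 76.2% and that difference from 18.9 to 22.4 points. Leaving out the Hox domains, or the 2 neighbourhoods with the most domains (added after seeing the data), left every value within its interval. No paired analysis was possible because each group has 1 library. The unknown depth of the lists limits every comparison of genotypes here.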

Other observations

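Some domains met a knockout peak wider than themselves, which did not always cover them in full. The widest knockout peak exceeded the domain it touched in 57 of the 754, and 48 of the 57 had RYBP, where 67.2% of all domains did. Knockout coverage of the 57 ran from 38.2% at Stk32c to 100%. A domain of 5373 bp at Iqank1 and Fam83h on chromosome 15, covered to 84.2%, met a knockout peak of 18667 bp. The neighbouring domain of 17226 bp at Fam83h had a widest knockout peak of the same width. At Nkx2-5, a heart regulator, the domain measured 5273 bp and the widest knockout peak 9823 bp, at Col2a1, the gene for cartilage collagen, 5383 and 8587 bp, and at Pitx1, a hindlimb regulator, 8833 and 11612 bp. Adjoining domains at Col2a1, 7947 bp, and Pitx1, 11290 bp, also had widest knockout peaks of 8587 and 11612 bp. These values were picked for their size in both libraries and are a description.

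A run of 13 domains on chromosome 5 from Uvssa to Fgfr3, 33393427 to 33735343, was noticed for its losses. Knockout peaks covered 45.3% of its 139.6 kb, against 76.6% in the other 50 domains of the chromosome. The 3 domains with RYBP were covered to 83.2% together. One of them lay at Nkx1-1, a homeobox gene, with 83.3% of 13302 bp, one at Fgfr3 with 84.6% of 17390 bp, and one of 8384 bp at no gene with 80.4%. The 10 without RYBP were covered to 30.6%, among them a second domain at Uvssa of 16603 bp covered to 8.47%. On the rest of the chromosome the values were 81.4% with RYBP and 49.7% without.

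MicroRNA genes were overlapped by a broad domain in 21 of 1036 cases, 2.03%, in 19 domains. Knockout peaks lay over 19 of the 21 hairpin genes and RYBP over 6, where they covered 75.2% and 22.7% of all domain bases. The 21 entries repeat some loci: Gm51285 lies inside Mir9-3 and Mir3073b inside Mir3073a. Both entries at Mir9-3 are among the 6 under RYBP. Mir9-3, a neural microRNA, lay in a domain of 14532 bp covered to 99.3% with RYBP over the hairpin, and Mir124a-3, another neural one, in 6538 bp covered to 86.1%, also under RYBP. Mir196a-2 and Mir615 lay in Hoxc domains of 10274 bp covered to 93.3% and 6137 bp covered to 85.5%. Mir675, within H19, lay in 11233 bp covered to 72.0% without RYBP, and Mir483, within Igf2, in 5968 bp covered to 90.2%. The 2 hairpins not covered in the knockout were Mir3087 at Abca2 and Mir7053 at Spib.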
